A study of Mus musculus with 8 samples.

Results

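The mouse genes Shh, Ihh and Dhh, which encode the 3 secreted hedgehog ligands, and Hhip, which encodes an antagonist that binds them, were examined for H3K27me3 in neural stem cells with and without Smchd1. The 4 genes were taken as a fixed list of names and were all found among the 34324 protein-coding and long noncoding genes with coordinates. H3K27me3, the trimethylation of lysine 27 of histone H3 the mark of Polycomb repressive complex 2, had been mapped by sequencing immunoprecipitated chromatin. 4 libraries were available, each paired with a whole-cell extract library that served only as the control for calling its peaks, which made 8 samples.

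The Smchd1 del/del cells (2 libraries) and the Smchd1 del/fl cells (2 libraries) came from the same kind of female line, derived at E14.5 from embryos with 1 deleted and 1 conditional Smchd1 allele on a C57BL/6 129/Castaneus mix. Smchd1 encodes a chromatin protein with a role in X inactivation. Both genotypes carried a maternal 129 X with the Xist deltaA allele and a paternal Castaneus X with wild-type Xist. The del/del cells had received the retrovirus MSCV-Cre-puro, were put under puromycin 24 hours later and were harvested 7 days after transduction. The del/fl cells were not transduced, so loss of Smchd1 cannot be told apart from transduction and selection. The labels do not say that libraries came from separate embryos or lines, so a p-value here reflects no more than the spread among these samples, which may be technical, and a line can be shared between genotypes. Lists of a histone mark do not measure RNA and do not show whether Smchd1 was deleted.

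Hedgehog ligands are lipid-modified proteins released by sending cells. They bind Patched receptors, which frees Smoothened to signal through the Gli transcription factors. Hhip sits at the surface of responding cells, binds all the ligands and is itself a target of the pathway. In the developing nervous system Shh comes from the notochord, floor plate and ventral forebrain and sets ventral cell fates. Ihh acts mainly in cartilage, bone and gut, and Dhh in Schwann cells and testis. Ligand genes that are silent in a given tissue are common targets of Polycomb, which in mammals is found mostly at promoters rich in CpG dinucleotides.

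The promoters of 3 of the 4 genes are shown because their CpG content can be set beside the mark. They are RefSeq sequences of GRCm38.p6, the build of the peak lists (mm10). Each runs 5′ to 3′ on the minus strand over 300 bases, with each CG in capitals. The Ihh window spans 250 bases before to 50 after the annotated 5′ end. At Dhh and Hhip the annotated 5′ ends, 98898562 and 80058060, lie further inside the window. The windows lie at chr1:74951623-74951922 for Ihh, chr15:98898491-98898790 for Dhh and chr8:80057959-80058258 for Hhip.
Ihh: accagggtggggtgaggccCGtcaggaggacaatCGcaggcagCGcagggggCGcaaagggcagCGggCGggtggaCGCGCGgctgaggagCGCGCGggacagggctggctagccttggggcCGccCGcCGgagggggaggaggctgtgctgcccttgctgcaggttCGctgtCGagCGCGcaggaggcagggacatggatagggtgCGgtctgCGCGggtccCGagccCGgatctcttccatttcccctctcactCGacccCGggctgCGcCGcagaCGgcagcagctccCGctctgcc
Dhh: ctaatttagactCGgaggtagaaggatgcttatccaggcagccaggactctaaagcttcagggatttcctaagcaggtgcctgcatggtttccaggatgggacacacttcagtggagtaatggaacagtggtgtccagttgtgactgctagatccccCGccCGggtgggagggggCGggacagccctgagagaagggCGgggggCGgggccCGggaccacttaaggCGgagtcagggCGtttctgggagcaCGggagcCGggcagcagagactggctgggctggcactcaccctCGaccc
Hhip: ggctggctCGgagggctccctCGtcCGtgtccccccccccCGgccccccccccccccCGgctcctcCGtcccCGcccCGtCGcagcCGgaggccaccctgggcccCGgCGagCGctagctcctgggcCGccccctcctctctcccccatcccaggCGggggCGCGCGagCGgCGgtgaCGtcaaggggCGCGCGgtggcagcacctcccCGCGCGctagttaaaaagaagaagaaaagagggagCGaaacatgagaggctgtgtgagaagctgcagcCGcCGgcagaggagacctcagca
The Ihh and Hhip promoters each held 30 CG dinucleotides in 300 bases, a count reached by 11.9% of 25748 autosomal promoters, and their GC contents were 72.7% and 73.7%. The Dhh promoter held 12, reached by 40.8% of them, with a GC content of 61.7%. The median promoter held 7. CG reads the same on both strands, and a count of it is a description only.

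The mark did not follow those counts among these genes. The Ihh promoter lay wholly inside a peak in all 4 libraries, and neither the Hhip promoter, with the same number of CG dinucleotides, nor the Dhh promoter was touched by a peak in any library. Of the 3057 autosomal promoters with at least 30 CG dinucleotides, 197 (6.44%) overlapped a peak in all 4 libraries, against 1218 (4.73%) of all autosomal promoters. Of the 10501 with at least 12, 745 (7.09%) did. Shh is named without a promoter sequence.

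Cover is used below for the percent of a stretch that lies inside peaks of a library's list. It was measured over the gene body and over end windows, which reach 2.5 kb inwards and 2.5 kb outwards of each annotated end. The lists held 32971 and 39982 peaks in del/del cells, against 36934 and 45566 in del/fl cells, from 14064030 and 12819919 tags used in del/del cells, against 13288499 and 11793402 in del/fl cells. On autosomes they covered 32.9 and 44.14 Mb in del/del cells, against 35.76 and 47.52 Mb in del/fl cells. The lowest pileup listed, the number of stacked tags at a peak, was 6 in replicate 1 and 5 in replicate 2 of either genotype, so the replicate 2 lists reach weaker peaks. As a check of the labelled cell type, 7 of 8 neural stem cell markers, among them Sox2 and Nes, had no peak at their ends in any library. The eighth was Pax6, with 9.01% and 16.7% end cover in del/del cells, against 8.70% and 22.1% in del/fl cells. Among markers of other cells, 4 of 5 neuronal, 2 of 6 glial, 1 of 4 microglial and blood and 2 of 4 fibroblast genes had a peak, and the absence or presence of this mark does not show which cells were present. The mean end cover of the neuronal list was 16.5% and 27.7% in del/del cells, against 15.6% and 21.5% in del/fl cells. It was 17.2% and 21.5% in del/del cells, against 14.7% and 17.1% in del/fl cells for the glial list, and under 5% in every library for the lists of microglia and blood and of fibroblasts. The neuronal marker Syp is X-linked. Any part of other cells in the results below was not tested.

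**Figure D1:**
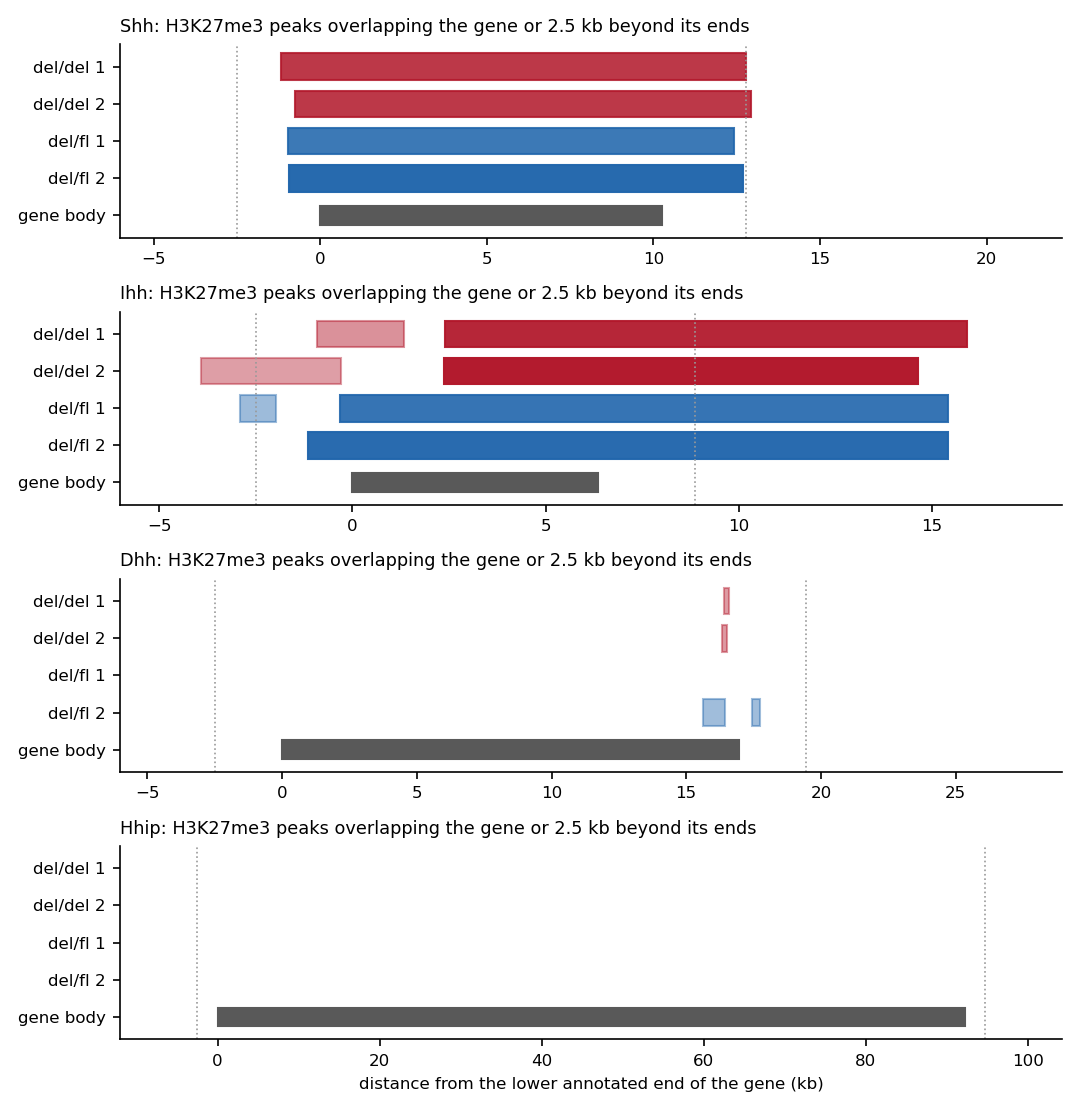
Every H3K27me3 peak that overlaps Shh, Ihh, Dhh or Hhip or the 2.5 kb beyond their ends, drawn to scale against distance from the lower annotated end in kb, with del/del libraries in red above del/fl libraries in blue, darker bars for higher pileup, the gene body in grey and the limits of the end windows dotted. Shh lies inside a single peak of 13400 to 13953 bp in each library, the Ihh body has a gap in both del/del libraries, Dhh has only short peaks near its 5′ end, at the right of its panel, and Hhip has none.

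The 4 genes fell into distinct states, shown in the map of their peaks. Shh was wholly inside a strong peak in every library. Ihh was wholly or mostly inside a peak of similar strength. Dhh carried short peaks of low pileup in 3 of the 4 libraries, and Hhip carried none. These states were seen in both genotypes. Of 20661 autosomal protein-coding genes, 234 (1.13%) had a fully covered body in all 4 libraries, as Shh did, and 13954 (67.5%) had no peak at the body or ends in any library, as Hhip had none. Mean end cover over the libraries was higher at Shh than at 98.9% of these genes, at Ihh than at 98.7% and at Dhh than at 84.2%.

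Shh, the ligand that patterns the ventral neural tube, spans 10262 bp at chr5:28456840-28467101. The peak over it ran over 28455664 to 28469616 in del/del 1 and 28456085 to 28469758 in del/del 2, and over 28455859 to 28469258 in del/fl 1 and 28455906 to 28469524 in del/fl 2. Its lower edge thus lay 755 to 1176 bp outside the gene and its upper edge 2157 to 2657 bp outside. The edges varied by 421 and 500 bp over the libraries, and 13174 of the 13938 bp covered in any library (94.5%) were covered in all 4. The gene table used for coordinates gives no strand for Shh, so its ends are called lower and upper.

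The Shh peak was among the strongest of each list. Its pileup was 21.87 and 19.84 tags in del/del cells, against 21.21 and 21.72 in del/fl cells, and its fold enrichment over the local background was 9.28 and 8.72 in del/del cells, against 9.34 and 10.01 in del/fl cells. These per-peak values are those of the authors' peak caller. By q-value it ranked 257 of 17102 and 276 of 26327 autosomal peaks in del/del cells, against 259 of 17564 and 226 of 26637 in del/fl cells.

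The neighbourhood of Shh was sparsely marked, and the flank values that follow include the overhang of the Shh peak itself. Of the 50 kb below the gene, 2.35% and 2.496% were covered in del/del cells, against 4.95% and 7.73% in del/fl cells. Of the 50 kb above it, 5.03% and 5.86% were covered in del/del cells, against 4.31% and 7.34% in del/fl cells. In del/del 1 the overhang of 1176 bp was all of the cover below, since the nearest other peak there was 146154 bp away. In the other libraries that distance was 15513 bp in del/del 2, against 20422 and 10031 bp in del/fl cells. The nearest other peak above the gene was 218268 and 42894 bp away in del/del cells, against 215867 and 11046 bp in del/fl cells. Over the 200 kb below Shh, mean cover was 2.52% and 4.28% in del/del cells, against 3.20% and 8.33% in del/fl cells. Part of that lay far from the gene in every library. Over the 200 kb above it, mean cover was 1.26% and 1.67% in del/del cells, against 1.08% and 1.84% in del/fl cells. The nearest protein-coding genes, Rbm33 at 37596 bp below and Rnf32 at 725644 bp above, had no peak at their ends in any library. The genes most like Shh over the 8 cover values (end and body in each library) were Nxph4, a neurexophilin gene, at a Euclidean distance of 4.02 points, Gsc2, a homeobox gene, at 6.78 and Kcna7, a potassium channel gene, at 8.13, and all 3 were 100% covered over the body in all 4 libraries.

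Ihh, the ligand of cartilage growth, spans 6358 bp on the minus strand at chr1:74945315-74951672, so its 5′ end is the upper one. Its 5′ window was 100% covered in all 4 libraries, by a long peak whose upper edge lay 8263 to 9553 bp beyond the 5′ end. In the del/del libraries that peak ran over 74947700 to 74961225 and 74947695 to 74959935 (13526 and 12241 bp). In the del/fl libraries it ran over 74944994 to 74960710 and 74944175 to 74960725 (15717 and 16551 bp). Its lower edge thus lay inside the gene in both del/del libraries, at positions 5 bp apart, and beyond the 3′ end in both del/fl libraries.

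The 3′ part of Ihh was covered differently in each genotype. Next to the long peak, del/del 1 had a weaker peak at 74944411 to 74946658, with a pileup of 8.02 and a q-value of 0.00172, and del/del 2 had one at 74941406 to 74945011, with 5.51 and 0.0434. In del/fl 1 a separate peak of 936 bp lay further out, at 74942411 to 74943346 with a pileup of 6.33, and del/fl 2 had the long peak alone. The stretch from 74946659 to 74947694, 1036 bp that lie 3978 to 5013 bp from the 5′ end, was inside a peak in both del/fl libraries and in neither del/del library. No base of the gene or its end windows had the opposite pattern. In full the gap measured 1041 bp for del/del 1 and 2683 bp for del/del 2. The 2 del/del libraries themselves differed over 3248 bp, more than the shared gap, and the del/fl libraries over 1351 bp. In all 4 libraries 6491 of 11358 bp (57.1%) were covered.

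The long Ihh peak, as called, had a slightly higher mean pileup and fold enrichment in del/del. The called stretches differ, with 13526 and 12241 bp in del/del cells, against 15717 and 16551 bp in del/fl cells. The del/fl peaks take in 3′ bases that the del/del peaks leave out, so the values do not compare the same bases. Whether the mark was stronger over the same stretch was not tested. Its pileup per 1000000 tags was 1.75 and 1.87 in del/del cells, against 1.66 and 1.81 in del/fl cells, and its fold enrichment was 10.5 and 10.5 in del/del cells, against 9.76 and 9.98 in del/fl cells. In fold enrichment both del/del values were above both del/fl values, and in pileup per 1000000 tags the genotypes overlapped (difference of the means 0.0779, exact permutation p = 0.667). By q-value it outranked 99.2% and 99.6% of the autosomal peaks of its list in del/del cells, against 99.1% and 99.4% in del/fl cells. With the weak neighbouring peaks averaged in by length, pileup per 1000000 tags was 1.585 and 1.544 in del/del cells, against 1.594 and 1.81 in del/fl cells, and the exact permutation p was 0.333, the smallest that 2 against 2 libraries allow.

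**Figure D2:**
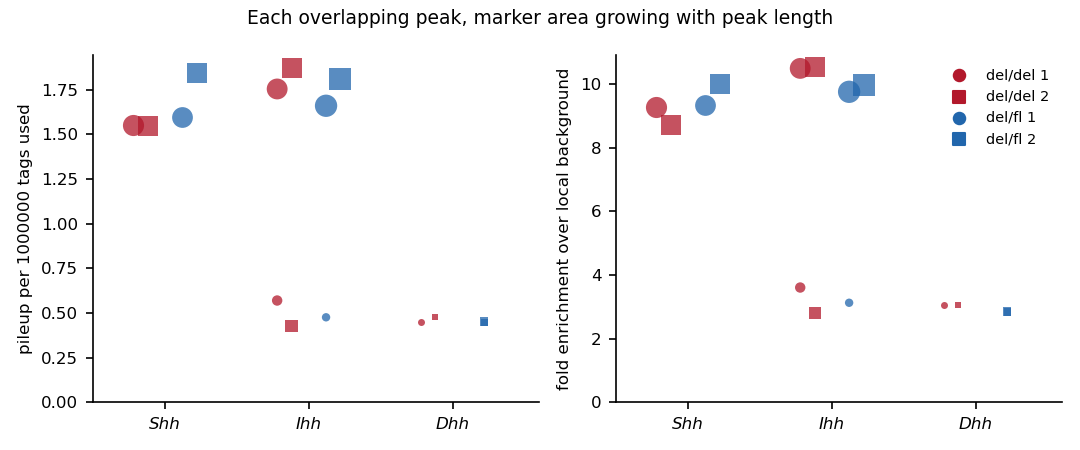
Each peak overlapping Shh, Ihh or Dhh (columns) by its pileup per 1000000 tags (left) and its fold enrichment over local background (right), with del/del in red left of del/fl in blue, circles for replicate 1, squares for replicate 2, and larger markers for longer peaks. The long Ihh peaks reach 1.75 and 1.87 in del/del cells, against 1.66 and 1.81 in del/fl cells, while the weak Ihh and Dhh peaks lie at 0.430 to 0.570.

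Ihh stood at the edge of a marked domain that reached out on its 3′ side. Over the 200 kb below the gene, mean cover was 47.1% and 54.4% in del/del cells, against 52.8% and 61.0% in del/fl cells. Over the 200 kb above it, mean cover was 6.76% and 6.25% in del/del cells, against 6.41% and 7.19% in del/fl cells, mostly from the overhang of the long Ihh peak. The nearest gene on the marked side, Cfap65, which encodes a protein of sperm flagella, lies 9689 bp away and had 91.7% and 86.6% end cover in del/del cells, against 91.3% and 100% in del/fl cells (limma adjusted p = 0.624). On the other side Nhej1, a gene of DNA end joining, lies 15674 bp away and had 2.38% and 0% in del/del cells, against 0% and 0% in del/fl cells. The nearest genes in cover to Ihh were Aqp5, which encodes a water channel, at 17.9 points, Hrh3, a histamine receptor gene, at 25.3 and Sp8, a transcription factor gene, at 28.9. At Aqp5 body cover was 73.2% and 76.5% in del/del cells, against 100% and 100% in del/fl cells. These 3 genes were picked for their likeness to Ihh, whose genotypes do not overlap, so their difference is no further evidence.

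Dhh, the ligand of Schwann and Sertoli cells, spans 16948 bp on the minus strand at chr15:98881615-98898562 and had short peaks near its 5′ end only. In del/del 1 a peak of 186 bp lay at 98898014 to 98898199, with a pileup of 6.33 and a q-value of 0.0183. In del/del 2 a peak of 192 bp lay at 98897947 to 98898138, with a pileup of 6.10 and a q-value of 0.0178. Del/fl 1 had no peak. Del/fl 2 had 827 bp at 98897241 to 98898067 (pileup 5.34, q-value 0.0593) and 302 bp at 98899066 to 98899367 (5.30, 0.0626). The last of these lies before the 5′ end and the other 3 inside the gene, and each stops 275 to 423 bp short of the 300-base promoter window.

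These Dhh peaks were weak by pileup, where the lowest listed was 6 in replicate 1 and 5 in replicate 2, but not all ranked low by pileup or q-value. The share of autosomal peaks of the same list with a lower pileup was 18.004% for the peak of del/del 1 and 55.8% for that of del/del 2, against 24.6% and 22.7% for those of del/fl 2. By q-value the del/del 2 peak ranked 10147 of 26327. In length the del/del peaks were at the floor of their lists. Their 186 and 192 bp equalled the fragment lengths used in calling, and 0% of autosomal peaks in either list were shorter. For the peaks of del/fl 2 that share was 52.6% and 17.9%. No base was covered in all 4 libraries, and 71 bp were covered in both del/del libraries and neither del/fl library. At a stricter threshold, −log10 q of at least 5, Dhh had no peak in any library. End cover was 1.86% and 1.92% in del/del cells, against 0% and 11.3% in del/fl cells, so the del/del values lay between those of del/fl. Its neighbours Rhebl1, 118 bp away, and Lmbr1l, 5356 bp away, had no peak at their ends in any library. The closest genes in cover, Mmadhc at 3.15 points and Fbln7 at 3.52, were likewise sparsely covered, with most of their cover in del/fl 2.

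Hhip, the membrane antagonist of all 3 ligands, spans 92211 bp on the minus strand at chr8:79965850-80058060 and had no peak at its body or end windows in any library. Over the 200 kb below the gene, mean cover was 0.412% and 0% in del/del cells, against 0% and 0% in del/fl cells, and over the 200 kb above it, 0% and 0.335% in del/del cells, against 0% and 0% in del/fl cells. Of the gene and 50 kb on each side, 0.0968% and 0% were covered in del/del cells, against 0% and 0% in del/fl cells. The nearest peak below was 7010 and 200113 bp away in del/del cells, against 998099 and 759513 bp in del/fl cells. Above, it was 551945 and 161397 bp away in del/del cells, against 552547 and 551583 bp in del/fl cells. The nearest protein-coding gene below, Anapc10 at 188529 bp, a subunit gene of the anaphase-promoting complex, had no end cover and had 0.982% and 1.08% body cover in del/del cells, against 0% and 0% in del/fl cells. With no peak, Hhip could not enter a fit, and no genes are named as like it.

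**Figure D3:**
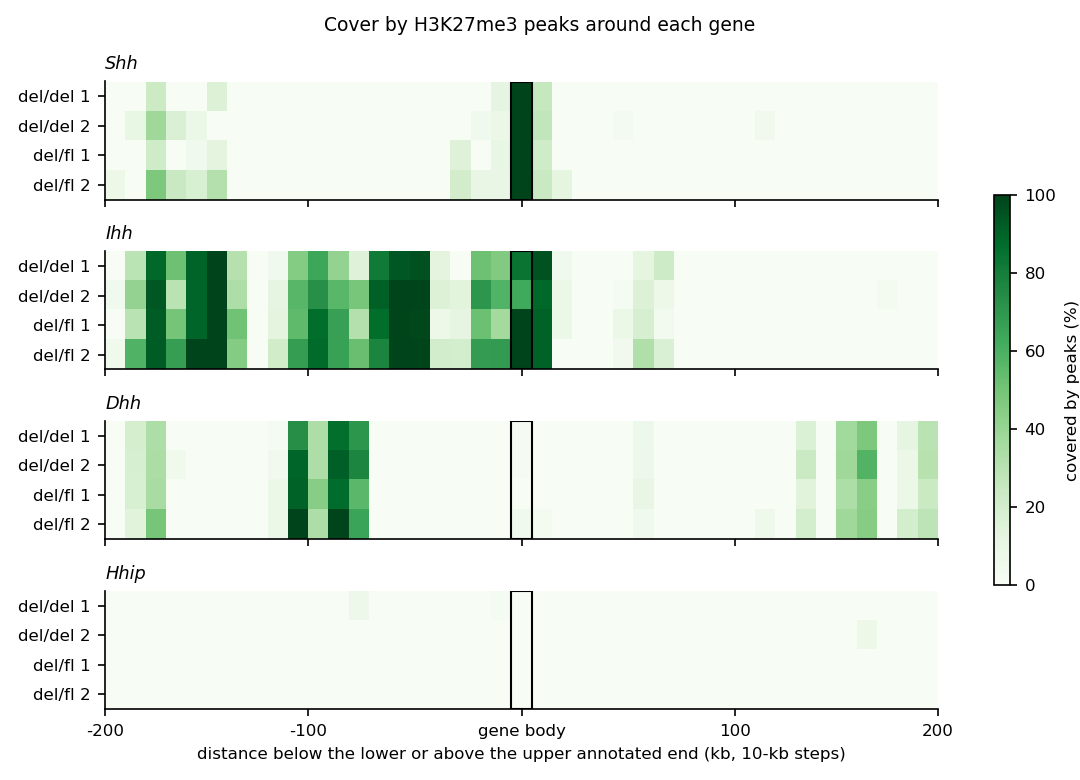
Percent of each 10-kb step covered by H3K27me3 peaks, from 200 kb below to 200 kb above each gene (horizontal axis, boxed centre for the gene body at no fixed scale), with 1 row per library, del/del above del/fl, and darker green for more cover. Around Shh mean cover is 1.08% to 8.33% on either side, with some marked steps far below the gene in every library. Ihh borders a domain on its lower side with a mean cover of 47.1% to 61.0%, and Dhh lies between marked stretches. Around Hhip no library has a mean cover over 0.412% on either side.

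The question the design puts to these genes is whether cover differed between del/del and del/fl. limma, fitted across all genes with a peak and adjusted over all of them by Benjamini-Hochberg, called 0 of the 3 members it could test at their ends, where it called 0 of 9131 genes (0%). It called 0 of the 3 over the body, where it called 0 of 9331 genes (0%). At an unadjusted p under 0.05 there were 517 higher and 382 lower genes at the ends and 602 higher and 304 lower over the body. Both del/del libraries lay below both del/fl libraries at 1 member, Ihh, in end cover and in body cover. The same held for 15.5% of the 8064 autosomal genes with a peak at the ends and for 14.7% of the 8292 with a peak in the body. At 0 members were both del/del values above both del/fl values, against 6.36% of those genes at the ends and 6.74% over the body. The mean was lower in del/del at 2 of the 3 members by either measure, as at 57.7% of those genes at the ends and 56.6% over the body, so these shares do not set the members apart.

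At Shh, end cover was 86.8% and 82.6% in del/del cells, against 81.4% and 83.6% in del/fl cells. The means were 84.7% ± 2.98 in del/del cells, against 82.5% ± 1.55 in del/fl cells (SD, n = 2 each), and the libraries overlapped. The difference of 2.18 points (SE 2.22) had a limma adjusted p of 0.660, and it was 0.0750 points without del/del 1 and 4.28 without del/del 2. Body cover was 100% in all 4 libraries and cannot show a difference upwards.

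Both del/del peaks over Shh were longer than both del/fl peaks, 13953 and 13674 bp against 13400 and 13619 bp. The difference of the means was 304 bp. The ranges of the edges, 421 and 500 bp, are over all 4 libraries and include any genotype difference, so they cannot weigh it. At the upper edge both del/del peaks reached further than both del/fl peaks. The window at that end had 100% and 100% cover in del/del cells, against 93.1% and 98.5% in del/fl cells. Pileup per 1000000 tags lay the other way, with 1.555 and 1.548 in del/del cells, against 1.60 and 1.84 in del/fl cells. Peak length and pileup each had an exact permutation p of 0.333. For cover of the gene and 50 kb on each side, with 12.7% and 13.1% in del/del cells, against 13.5% and 16.1% in del/fl cells, the exact permutation p was also 0.333.

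At Ihh, end cover was 73.6% and 73.2% in del/del cells, against 83.5% and 86.4% in del/fl cells, with means of 73.4% ± 0.325 in del/del cells, against 84.97% ± 2.03 in del/fl cells (SD, n = 2 each). The difference of -11.6 points (SE 1.51) had an unadjusted p of 0.00671 in limma and an adjusted p of 0.275. All of it came from the 3′ window, with 47.3% and 46.4% in del/del cells, against 67.1% and 72.8% in del/fl cells. Body cover was 83.6% and 62.6% in del/del cells, against 100% and 100% in del/fl cells, a difference of -26.9 points (SE 9.32, limma adjusted p = 0.607). The 2 del/del libraries were themselves far apart in body cover.

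Whether the Ihh difference passed the test depended on how peaks were read. When peaks were merged over gaps of up to 3 kb it was 0 at the ends and 0 over the body. With only peaks of −log10 q of at least 5, the weak 3′ peaks of del/del dropped out while the same stretch in del/fl lay within the long peak, and the body difference was -37.5 points (limma adjusted p = 0.00024). In that fit both del/fl values were at the upper limit of 100%, and the lower edges of the del/del peaks lay 5 bp apart. The small p-value rests on that very small spread within genotypes. Without del/del 1 the body difference was -37.4 points (limma adjusted p = 0.00376), and without del/fl 1 the end difference was -13.0 points (limma adjusted p = 0.0429). In each of these last fits the lone library of a genotype is assumed to vary like the others, and limma called 1142 and 1558 genes in them.

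Ihh and Shh were also set side by side within each library. End cover at Ihh minus that at Shh was -13.1 and -9.38 points in del/del cells, against 2.15 and 2.83 points in del/fl cells. Both del/del values were lower, and the difference of -13.7 points had an exact permutation p of 0.333. The pileup per 1000000 tags of Ihh minus that of Shh overlapped between the genotypes (exact permutation p = 0.667). The choice of this pair was made after the values had been seen.

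At Dhh the genotypes overlapped in every measure of cover. The difference at the ends was -3.75 points (SE 4.97, limma adjusted p = 0.749) and that over the body -1.32 points (SE 2.16, limma adjusted p = 0.824). It rested on del/fl 2: without that library the differences were 1.89 and 1.12 points. The exact permutation p for end cover was 1. Hhip was at 0 in all 4 libraries.

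**Figure D4:**
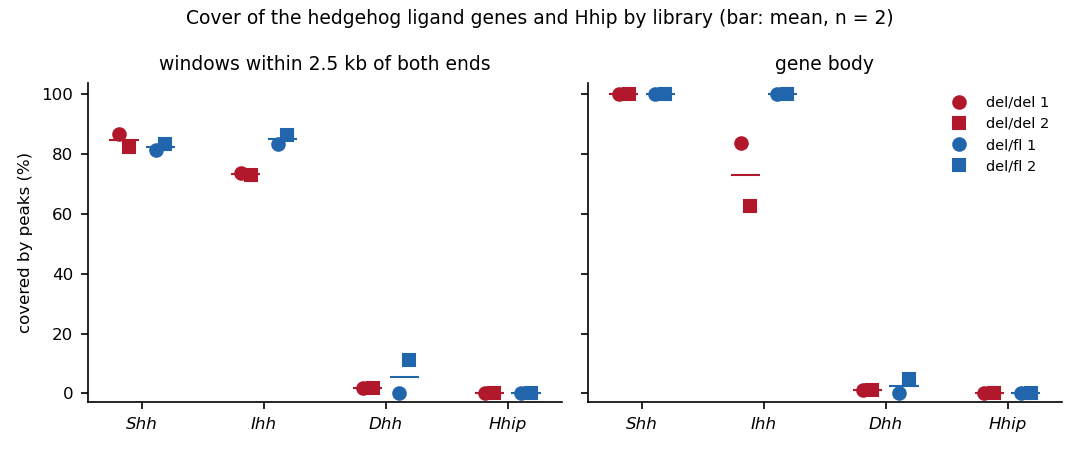
Percent of the end windows (left) and of the gene body (right) covered by H3K27me3 peaks at Shh, Ihh, Dhh and Hhip, with del/del in red left of del/fl in blue, circles for replicate 1, squares for replicate 2 and a bar for the mean of the 2 libraries. At Ihh both del/del libraries lie below both del/fl libraries, at 73.6% and 73.2% against 83.5% and 86.4% at the ends, and at the other genes the libraries overlap or coincide.

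The rest of the pathway was read from 37 listed genes, 18 of which had a peak at their ends in any library, 15 in all 4. Of the 20661 autosomal protein-coding genes, 2561 (12.4%) had an end peak in all 4. The listed genes were chosen with earlier results of these data known, so their share is a description only. limma called none of the 18. The mean was lower in del/del at 12 and higher at 2, where the same 57.7% of autosomal genes had a lower mean, and both del/del libraries lay below both del/fl libraries at 6 (33.3%) and above them at 0, beside 15.5% and 6.36% of autosomal genes. The median difference of the 18 was -1.77 points, and that of all 8064 autosomal genes was -0.965 points.

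Among the 6 genes of ligand processing and release, Hhat, which attaches the palmitate, and Disp1, which releases the ligand, had no peak. The Scube genes, whose secreted products help release, did. Scube1 had 20.9% and 22.8% in del/del cells, against 22.5% and 22.8% in del/fl cells, and Scube2 22.7% and 41.1% in del/del cells, against 20.1% and 50.9% in del/fl cells. Scube3 had 36.7% and 39.2% in del/del cells, against 50% and 45.1% in del/fl cells (limma adjusted p = 0.472).

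Among receptor and co-receptor genes, Smo, Boc and Gas1 had no peak, and at Ptch1, Cdon and Lrp2 both del/del libraries lay below both del/fl libraries. Ptch1, which encodes the main hedgehog receptor and is a target of the pathway, had 0% and 0% in del/del cells, against 9.18% and 8.02% in del/fl cells (limma adjusted p = 0.267). It rested on 1 peak per del/fl library, of 918 bp (pileup 6.30, q-value 0.0242) and 802 bp (pileup 6.09, q-value 0.0189). Cdon, a co-receptor gene, had 33.9% and 28.3% in del/del cells, against 38.6% and 40.8% in del/fl cells (limma adjusted p = 0.562). The strongest Cdon peak of every library ended before the lower end of the gene. Body cover of Cdon was 7.36% and 5.54% in del/del cells, against 4.09% and 9.68% in del/fl cells. Lrp2, which encodes megalin, had 4.81% and 24.8% in del/del cells, against 39.4% and 50% in del/fl cells (limma adjusted p = 0.569). The Lrp2 peaks had pileups of 6 in del/del 1 and 7.13 and 7.10 in del/del 2. In del/fl cells they had 9.44 and 7.83 in replicate 1, and 6.50 over 1 peak of 7737 bp in replicate 2. The lowest pileup listed was 6 in replicate 1 and 5 in replicate 2.

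The 7 genes of signal transduction between Smoothened and Gli, Sufu and Kif7 among them, had no end peak in any library. Of the transcription factor genes, Gli1 had 50.02% and 48.5% in del/del cells, against 46.7% and 56.9% in del/fl cells (limma adjusted p = 0.832), and Gli2 and Gli3 had none at the ends. The strongest Gli1 peak of every library lay mostly outside the gene, across its lower end. Body cover of Gli1 was 21.4% and 20.1% in del/del cells, against 18.5% and 32.5% in del/fl cells.

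Targets of the pathway ranged from bare to full. Foxa2, Nkx2-1, Nkx6-1 and Foxf1, transcription factor genes of ventral neural tube, forebrain and mesenchyme, were 100% covered at the ends in all 4 libraries. Foxf2 had 86.9% and 100% in del/del cells, against 96.8% and 100% in del/fl cells, and Foxl1 100% and 100% in del/del cells, against 95.5% and 100% in del/fl cells. Nkx6-2 had 63.1% and 63.2% in del/del cells, against 64.6% and 66.4% in del/fl cells, and Pthlh, which Ihh induces in cartilage, had 39.9% and 41.8% in del/del cells, against 42.0% and 42.1% in del/fl cells. Mycn had 3.00% and 9.07% in del/del cells, against 3.25% and 20.4% in del/fl cells. Olig2, Ccnd1 and the Hhip relatives Hhipl1 and Hhipl2 had no peak.

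**Figure D5:**
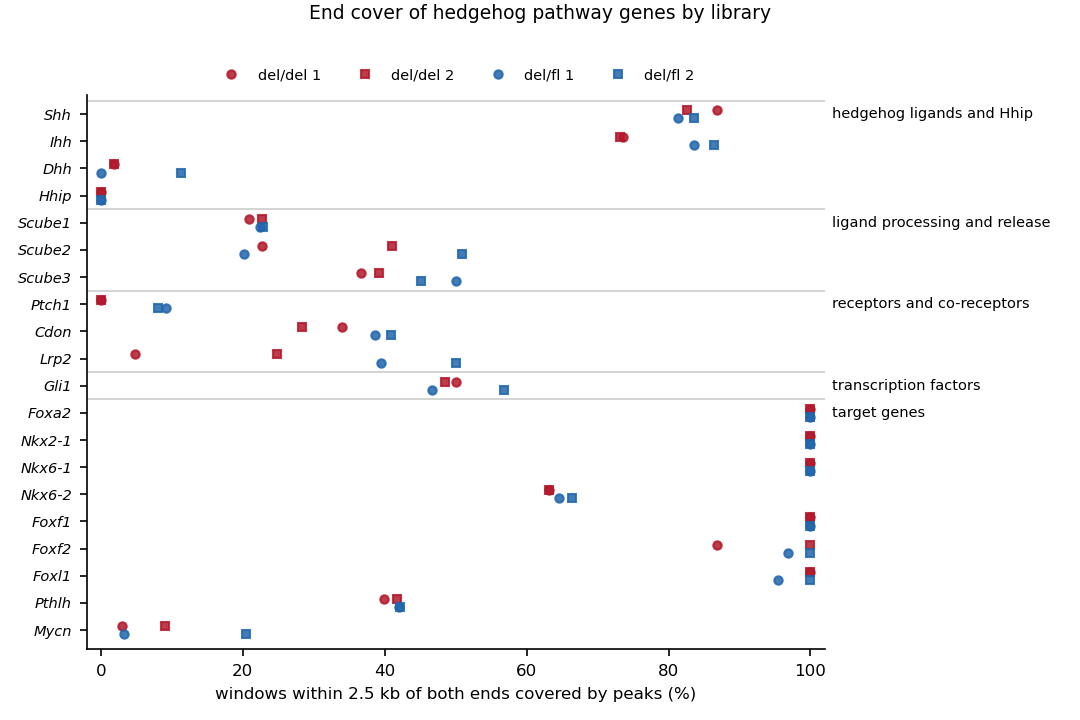
End cover in percent (horizontal axis) of the 4 hedgehog genes and of the listed pathway genes with a peak in all 4 libraries or with genotypes that do not overlap, grouped by role, with del/del in red, drawn above del/fl in blue, circles for replicate 1 and squares for replicate 2. Foxa2, Nkx2-1, Nkx6-1 and Foxf1 lie at 100% in all libraries, and Ihh, Scube3, Ptch1, Cdon, Lrp2, Nkx6-2 and Pthlh have both del/del libraries below both del/fl libraries.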

How the data were processed

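H3K27me3 peak lists of 2 del/del and 2 del/fl libraries were analysed. The submitters' processing notes name bcl2fastq, Bowtie 0.12.9 and the build mm10. Each library had its own peak list from MACS2 2.1.0.20140616 in broad mode against whole-cell extract, with a q-value cutoff of 0.05, 1 tag kept per position and background windows of 1000 and 10000 bp, per the file headers. Broad calling lists regions with q-values up to 0.0983, which is how peaks over 0.05 come to be named. The deposited start, end and length are positions in bp. Pileup, as deposited, is a signal: the stack of tags at a peak. The deposited fold enrichment is a ratio to the local background. The p-values and q-values are deposited as −log10 by the authors' caller.

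Cover per gene was computed with Python 3.11.15, numpy 2.4.6 and pandas 2.3.3 from RefSeq coordinates (GRCm38.p6), and figures were drawn with matplotlib 3.10.9. Percent cover was fitted in R 4.3.3 by limma 3.58.1 (variance trend, robust, Benjamini-Hochberg) over genes on autosomes and X with a peak in any library. Pileup was scaled to 1000000 tags used and averaged over the peaks of a gene by length. Members were also compared by exact two-sided permutation tests. Code was tested on simulated data. No 2 lists were identical.

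The members, the pathway and marker lists, the naming rule and the alternatives were chosen with earlier results of these data known. Genes were named if they were members, their nearest protein-coding neighbours, the 3 genes closest in cover to a member, or pathway genes with an end peak in all 4 libraries or with genotypes that did not overlap. Genes named outside that rule, mostly for having no peak, were picked after their values were seen. A few genes that the rule or the lists hold are not reported here. Alternatives were lists of equal length, stricter peaks (−log10 q of at least 5), merging over 3 kb, other windows, scales and filters, a replicate block and leaving out each library. Replicate numbers are shared between genotypes, but with only 2 pairs they were not taken to pair the libraries.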

Additional observations from a re-analysis of the deposited data

How the results depend on the processing

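The counts of genes called by limma depended on the setting. From 0 at the ends, the count became 111 with stricter peaks, 32 with merged peaks, 21 with 1-kb windows, 93 with 5-kb windows and 222 after division by each library's autosomal cover, and it ran from 0 (without del/del 2) to 1558 (without del/fl 1) when each library was left out, with 1117 without del/del 1 and 297 without del/fl 2. From 0 over the body, it became 95 with stricter peaks, 47 with merged peaks, 3 on the arcsine square root scale, 5 with lists of equal length and 9 with no trend and no robust fitting. It was 1 for genes with a peak in at least 2 libraries, a filter added after seeing the data because a fit of all annotated genes could not be fitted, and 0 to 1332 when each library was left out (1142 without del/del 1, 203 without del/fl 2). No member was called in the settings other than those given here.

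For Ihh, merged peaks gave 0 at the ends, 0 over the body, 8134 bp in summed extent and 0.489 points in the 50-kb cover. Stricter peaks gave -37.5 points over the body, -31.1 at the ends (limma adjusted p = 0.107), and 0.0779 in pileup per 1000000 tags, as did the highest pileup. Leaving out each library gave -13.0 to -10.1 at the ends, -37.4 to -16.4 over the body and -5.37 to 0.374 in the 50-kb cover, which was -0.503 with lists of equal length. Division by autosomal cover gave -5.18 at the ends (limma adjusted p = 0.940). For Dhh, lists of equal length gave 1.89 at the ends, 1.12 over the body, 189 bp in extent and 0.162 in the 50-kb cover, and stricter peaks gave 0 in extent, pileup and 50-kb cover. Leaving out each library gave -9.40 to 1.89 at the ends (-9.40 without del/fl 1, limma adjusted p = 0.0354), -3.76 to 1.12 over the body (-3.76 without del/fl 1, limma adjusted p = 0.0231), -940 to 189 bp in extent and -0.804 to 0.162 in the 50-kb cover. For Shh, 1-kb windows gave -1.999 at the ends and stricter peaks 0.276 in the 50-kb cover, and leaving out each library gave 0.0750 to 4.28 at the ends. Division by autosomal cover gave 9.48 at the ends and 8.10 over the body, where it rescales values of 100% in every library. For Hhip the 50-kb cover was 0 with stricter peaks and 0 to 0.0968 when each library was left out. Where no construction is named, the cause was not tested.

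With the replicate number as a block, limma called 0 genes at the ends and 0 over the body, and Ihh had adjusted p-values of 0.489 and 0.608. Deviations of same-numbered libraries correlated at r = 0.111 (ends) and 0.122 (body) across autosomal genes. Of 197 alternative values, 153 were labelled unchanged, which for a limma difference means the same direction and side of the 0.05 threshold. Much of that tally was fixed in advance and does not measure robustness. Permutation results could not change side, since their p cannot fall under 0.333. Counts of called genes have no direction, and Shh body cover was 100% in every library. With 2 libraries per genotype, only large differences could pass, and 5 or 6 stacked tags were the least that any list holds.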

Other observations

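The 3 ligand genes differ in the company they keep, and the genes below were chosen after their values were seen. Within 200 kb of Ihh, 5 of 11 protein-coding genes had at least 50% end cover in all 4 libraries. The share of all genes with that cover was not computed, so this count and that near Dhh are descriptions only. Fev, a transcription factor gene of serotonin neurons, and Cryba2, a lens crystallin gene, were at 100% in all 4. Wnt10a, which encodes a Wnt ligand, had 98.3% and 96.9% in del/del cells, against 100% and 100% in del/fl cells. Cdk5r2, which encodes a neuronal activator of Cdk5, had 52.0% and 57.6% in del/del cells, against 90.1% and 99.6% in del/fl cells (limma adjusted p = 0.275). Both del/del libraries were lower at Wnt10a and Cdk5r2, an order held by 15.5% of autosomal genes with a peak at the ends. At Fev and Cryba2 all libraries were equal, and at Cfap65, the last of the 5, the genotypes overlapped.

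Within 200 kb of Dhh, 3 of 17 genes were covered to that extent. Wnt1, the ligand of the midbrain organizer, had 87.2% and 88.7% in del/del cells, against 96.3% and 88.5% in del/fl cells, and its neighbour Wnt10b had 63.1% and 70.2% in del/del cells, against 70.8% and 74.0% in del/fl cells. Ddn, which encodes the postsynaptic protein dendrin, had 80.9% and 88.1% in del/del cells, against 64.8% and 74.7% in del/fl cells (limma adjusted p = 0.612). Both del/del libraries were higher at Ddn, an order held by 6.36% of autosomal genes with a peak at the ends. Both were lower at Wnt10b, an order held by 15.5%, and at Wnt1 the genotypes overlapped. Dhh itself, at no more than 11.3% end cover in any library, lay 87785 bp from Wnt1. Within 200 kb, Shh and Hhip each have 1 protein-coding gene, and neither had a peak at its ends in any library.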
